A study of Mus musculus with 18 samples.

Results

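The 10 genes described here encode neuropeptides and marker proteins by which cortical interneurons are sorted into subtypes. They are the peptide genes Sst, Cort, Npy, Vip, Cck and Crh, the gene of neuronal nitric oxide synthase Nos1, the genes of the calcium-binding proteins Pvalb and Calb2, and the membrane protein gene Lamp5. They were found by gene symbol, each on a single row of a table of 55487 genes counted in frontal cortex of 18 mice. All 10 passed the filter on low counts, as did 17414 genes in all. The mice were 9 to 10 months old and fell into 6 WT, 6 APP/PS1 and 6 APP/PS1/FTnKO mice, each group with both sexes in equal number. APP/PS1 mice (B6C3, line 85) carry the APP/PS1 transgenes and deposit amyloid. In APP/PS1/FTnKO mice, floxed alleles of the β-subunit of farnesyltransferase (FT), the enzyme that attaches a farnesyl lipid to proteins, are also deleted by Cre recombinase under the CamKIIα promoter. That promoter is active in forebrain excitatory neurons, so the interneurons that express most of the 10 genes are not the cells in which the deletion is directed. By the study's methods all 3 genotypes were littermates homozygous for the floxed alleles, with Cre in the knockout group alone, whereas the deposited design text calls the WT mice C57BL/6J, and this is not settled. A Cre-positive group without the APP/PS1 transgenes was not analysed here, so the deletion could be compared within APP/PS1 mice alone.

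Cortical interneurons release GABA and form a minority of cortical neurons. Parvalbumin cells inhibit the soma and axon of pyramidal cells at high rates, somatostatin cells inhibit their dendrites, and cells with vasoactive intestinal peptide mainly inhibit other interneurons. Lamp5 marks neurogliaform and related cells of the upper layers. Neuropeptide Y is shared by several classes, and long-range projecting cells combine Sst and Npy with high Nos1. Cholecystokinin is made both by a class of basket cells and by many pyramidal cells, so that Cck RNA in whole cortex is not a measure of interneurons alone. All values below come from whole tissue, in which fewer cells of a type and less RNA per cell cannot be told apart.

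The libraries held 15925400 to 21030900 counts, with medians of 18799300 in WT, 17597000 in APP/PS1 and 19506800 in APP/PS1/FTnKO mice. The RNA integrity number (RIN) spanned 8.5 to 8.8 for WT, 7.7 to 8.7 for APP/PS1 and 7.6 to 8.7 for APP/PS1/FTnKO. Values are normalized CPM, that is, counts set to a common library size by edgeR's TMM method over 17 mice. WT mouse 19622, a female, stood apart and is described on its own below. The study left out a WT mouse that it does not name. Fntb, the gene of the FT β-subunit, had 7.84 to 14.7 normalized CPM with the deletion (APP/PS1/FTnKO), 14.2 to 32.1 with the transgenes alone and 14.1 to 32.2 in WT, with counts over the whole gene and not over the deleted part. Of the 5 genes of plaque-associated microglia, edgeR called 5 higher in APP/PS1 mice and 5 higher in APP/PS1/FTnKO mice relative to WT, beside 1.50% and 3.87% of all genes called in either direction.

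Sst and Cort are related genes whose precursors end in a similar stretch, from which somatostatin and cortistatin are cut. The last 15 codons before the stop of each coding sequence (GRCm38 transcripts) are printed to show how alike they are, with the bases that are the same in capitals after a shift of 1 codon.
Sst: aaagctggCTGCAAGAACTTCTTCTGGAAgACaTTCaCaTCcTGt
Cort: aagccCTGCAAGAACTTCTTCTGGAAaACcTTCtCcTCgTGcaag
Of the 14 codons set against each other, 11 encode the same amino acid and 7 are the same codon, and 31 of 42 bases are shared. The longest run shared by the transcripts of the pair is 21 bases, and the longest in any of the 45 pairs of members is 26 bases, between Vip and Nos1. Reads were 150 bases long. Nos1 was the only member whose position overlaps other annotated genes, and these had 0 to 2 counts in any mouse.

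Sst is a textbook target of the factor CREB, which binds the cyclic AMP response element (CRE). RefSeq promoter windows of GRCm38.p6, of 300 bases around the start, were at hand for 8 members in 10 windows, with none for Crh and Calb2. The whole element TGACGTCA was found in the Sst window and in no other member, and in 588 of 32851 promoters (1.79%). The shorter element TGACG, searched on both strands and contained in the whole one, was found in 5 member genes and in 20.812% of promoters. The stretches around the matches are shown 5′ to 3′ on the gene's strand, with the element or its reverse complement in capitals.
Sst (chr16:23890865-23890912, minus strand): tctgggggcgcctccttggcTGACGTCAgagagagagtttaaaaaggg
Vip (chr10:5639119-5639163, plus strand): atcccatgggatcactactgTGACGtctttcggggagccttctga
Cort (chr4:149126757-149126801, minus strand): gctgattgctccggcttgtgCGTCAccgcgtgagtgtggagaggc
Nos1 (chr5:117866689-117866733, plus strand): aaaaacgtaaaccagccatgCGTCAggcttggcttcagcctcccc
Cck (chr9:121495717-121495761, minus strand): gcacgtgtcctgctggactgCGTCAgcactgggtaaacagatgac
The match in Sst begins 48 bases before the start site and that in Cck 47 bases before it. The Nos1 window, from 117866589 to 117866888, lies inside the gene, which begins at 117781032, so its start site is not the gene's annotated beginning. A match is a description of these letters and not of binding.

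Per length, Sst was the most abundant of the 10 RNAs and Crh had the lowest mean. Over the 17 mice and per kilobase of exon, Sst had 173 ± 21.6 normalized CPM (SD, n = 17), Npy 97.0 ± 16.6, Cck 89.2 ± 20.0 and Lamp5 52.0 ± 7.96. Pvalb followed with 25.6 ± 5.42, Calb2 with 14.0 ± 7.98 and Vip with 7.85 ± 1.58 on the same scale. Nos1, with the longest exons of the 10 at 11151 bases, had 6.86 ± 0.953, Cort 3.99 ± 0.814 and Crh 2.71 ± 0.596. Sst was above Npy in 17 of 17 mice, and Cck above Lamp5 and Lamp5 above Pvalb likewise. Pvalb was above Calb2, and Nos1 above Cort, in 16 of 17 mice. The other neighbours were not set apart by their spread, with Npy above Cck in 11 of 17 mice, Vip above Nos1 in 12, Calb2 above Vip in 13 and Cort above Crh in 14. Without the division by length, 9 of the 10 genes took another place in the order, with Lamp5 first at a mean of 152 normalized CPM.

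WT mouse 19622 differed from the other WT mice in opposite directions for different markers. Its level, on a scale of all 18 mice, was outside the range of the other 17 mice for every member except Crh. Calb2 had 324 normalized CPM in 19622 against 27.7 ± 15.0 (SD, n = 5) in the other WT mice, an 11.7-fold difference. Pvalb had 308 against 27.7 ± 5.62, which is 11.1-fold, and Nos1 153 against 81.9 ± 3.33, which is 1.87-fold. All 3 are known to be expressed outside the neocortex too, Pvalb and Calb2 strongly in cerebellar neurons. On the other side, Cck was 10.2-fold lower (13.3 against 136 ± 20.3) and Vip 10.1-fold lower (2.57 against 25.9 ± 4.38). Npy was 6.93-fold lower, Sst 4.28-fold and Lamp5 1.72-fold lower, and Cort, with 8 counts, 6.37-fold lower. Crh, at 3.12 against 3.86 ± 0.413, lay within the range of the other mice.

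In the same mouse, the 6 genes of a cerebellum list summed to 2566 normalized CPM, against 23.3 to 50.4 in the other 17 mice. Gabra6, the receptor subunit of cerebellar granule cells, had 400.2 normalized CPM in 19622 and 0 counts in 13 of the other 17 mice, and Pcp2, the Purkinje cell gene, had 172 and was at 0 in 8 of them. A list of thalamic genes summed to 470 in 19622 against 78.1 to 128 in the others. In those 17 mice a single gene, Rora, held 47.9% to 68.4% of that sum, and its share in 19622 was not examined. The sum of 9 cortical excitatory genes was 420 against 1039 to 2008, with Fezf2 at 0 counts in 19622, and that of 6 striatal genes was 129 against 514 to 1533. The 3 genes of GABA synthesis and loading, Gad1, Gad2 and Slc32a1, summed to 720 in 19622, inside the range of 607 to 966. The part of these markers in the levels of the 10 genes was not tested.

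**Figure D1:**
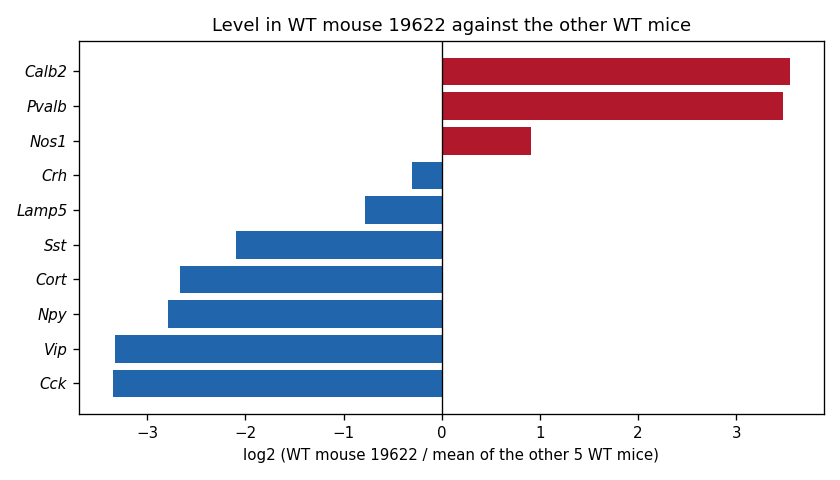
The log2 ratio of the level in WT mouse 19622 to the mean of the other 5 WT mice, for each of the 10 genes, in red where higher and blue where lower. Calb2 and Pvalb lie over 11-fold above and Cck and Vip over 10-fold below the other WT mice.

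None of the 10 genes passed an FDR of 0.05 in any genotype comparison of the 17 mice by edgeR's quasi-likelihood test. Between APP/PS1 and WT mice, where 1.50% of all genes tested were called (261 of 17414), 2 members had an unadjusted p below 0.05, Nos1 and Crh, both lower, against 14.0% of all genes. For APP/PS1/FTnKO relative to APP/PS1, 0.327% of all genes were called, and 5 of the 10 members had an unadjusted p below 0.05 against 11.5% of all genes. Of these, Crh, Nos1 and Vip were higher and Cort and Cck lower in APP/PS1/FTnKO mice. For APP/PS1/FTnKO relative to WT, 3.87% of all genes were called, and Cck and Lamp5, both lower, had an unadjusted p below 0.05 against 22.1% of all genes. DESeq2 called 0, 0 and 1 member in the same order, the last being Cck, where it called 8.59% of the genes it tested (1321 of 15376). Its share over all genes in the other comparisons is not given here. No member had groups that did not overlap in any of the 3 comparisons, against 2.40%, 0.970% and 5.60% of all genes. The comparisons share groups, APP/PS1 mice and WT mice each entering more than 1, so they are not independent.

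The directions were uneven in the comparison of APP/PS1 with WT mice, in which 9 of the 10 genes had a negative log2 fold change and Cort a positive one, beside 50.6% negative over all genes. The median over the 10 was -0.18 and that over all genes -0.0023. For APP/PS1/FTnKO relative to APP/PS1 the median was 0.12, with 6 genes positive, and relative to WT it was -0.047, with 4 positive. With WT mouse 19622 included, Sst, Npy, Vip and Cck turned to positive in APP/PS1 against WT mice, and with RIN as a covariate Vip and Cck did so.

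**Figure D2:**
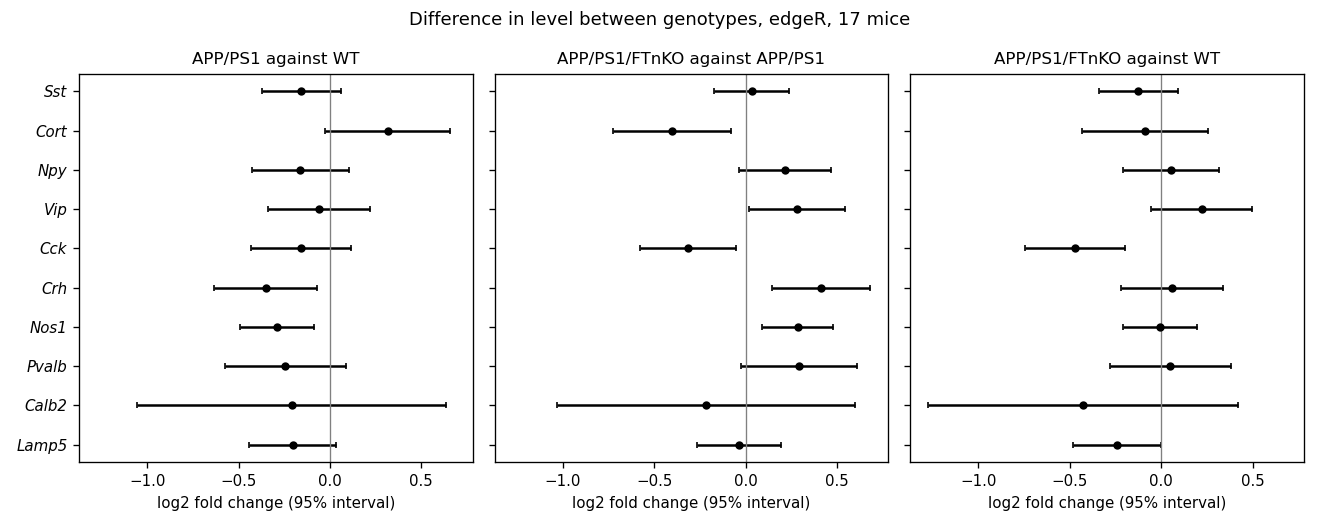
The log2 fold change of each gene in the 3 genotype comparisons, as points with 95% confidence intervals from edgeR's fit of 17 mice. The intervals of Calb2 are the widest, from -1.05 to 0.64 for APP/PS1 against WT mice, and the point furthest from 0 is that of Cck in APP/PS1/FTnKO against WT mice at -0.47.

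Sst (ENSMUSG00000004366, chromosome 16 from 23889573 to 23890958 of GRCm38) encodes somatostatin, the inhibitory peptide of the dendrite-targeting class. The WT mice had 128, 136, 135, 144 and 122 normalized CPM. APP/PS1 mice ranged from 88.8 to 134 (median 124) and APP/PS1/FTnKO mice from 97.8 to 155 (median 121). All 3 groups overlapped, and APP/PS1 mouse 16975 was the lowest of all at 88.8. The log2 fold change of APP/PS1 against WT was -0.16 (95% interval -0.37 to 0.06). That of APP/PS1/FTnKO was 0.03 (-0.17 to 0.24) relative to APP/PS1 and -0.12 (-0.34 to 0.09) relative to WT, and without 16975 the former turned to -0.04 and the value of APP/PS1 against WT was -0.080. Relative to WT, APP/PS1/FTnKO mice were at -0.064 without mouse 18943 and at -0.19 without 19394.

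Cort (ENSMUSG00000028971, chromosome 4 from 149125034 to 149126763) encodes cortistatin, which acts on somatostatin receptors and is made in a subset of interneurons. It rested on 29 to 66 counts per mouse. In WT mice it was at 2.31, 2.28, 2.56, 3.00 and 2.69 normalized CPM. The range was 2.74 to 3.53 (median 3.19) among APP/PS1 and 1.66 to 3.09 (median 2.39) among APP/PS1/FTnKO mice. Each APP/PS1 mouse was above 4 of the 5 WT mice, the exception being WT mouse 19718 at 3.00. Cort was the only member with a higher mean in APP/PS1 mice than in both other groups. Relative to WT, the log2 fold change of APP/PS1 was 0.31 (SE 0.16, FDR = 0.395, edgeR), and that of APP/PS1/FTnKO relative to APP/PS1 was -0.40 (SE 0.15, unadjusted p = 0.0170, FDR = 0.312, edgeR).

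Npy (ENSMUSG00000029819, chromosome 6 from 49822710 to 49829507) encodes neuropeptide Y. WT levels were 50.6, 60.2, 52.4, 64.6 and 55.0 normalized CPM. Values of 43.2 to 59.2, with a median of 49.8, were found in APP/PS1 mice, and of 43.3 to 79.8, with a median of 58.2, in APP/PS1/FTnKO mice. The groups overlapped, and the spread was widest in APP/PS1/FTnKO mice, with a coefficient of variation of 23.4% beside 10.2% in WT and 10.3% in APP/PS1 mice. The log2 fold changes in the 3 comparisons were -0.16, 0.21 and 0.05, with an FDR of 0.530 or more in edgeR's test. Without APP/PS1/FTnKO mouse 19394 the value of 0.21, that relative to APP/PS1, was 0.072.

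Vip (ENSMUSG00000019772, chromosome 10 from 5639218 to 5647617) encodes vasoactive intestinal peptide, of the cells that inhibit other interneurons. Among the WT mice it stood at 22.1, 26.2, 22.5, 32.7 and 25.8 normalized CPM. APP/PS1 mice ranged from 15.3 to 29.4 (median 25.0) and APP/PS1/FTnKO mice from 22.3 to 36.1 (median 29.0). The groups overlapped, with the lowest value in the APP/PS1 female 19554. Log2 fold changes of APP/PS1/FTnKO mice were 0.28 (SE 0.13, unadjusted p = 0.0382, FDR = 0.396, edgeR) relative to APP/PS1 and 0.22 (SE 0.13, FDR = 0.339, edgeR) relative to WT.

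Crh (ENSMUSG00000049796, chromosome 3 from 19693401 to 19695396) encodes corticotropin-releasing hormone, which in cortex is made in part of the Vip cells among others. It rested on 34 to 99 counts per mouse. In the 5 WT mice it was 3.49, 3.50, 4.27, 3.70 and 4.34 normalized CPM. The range was 2.11 to 3.71 (median 2.95) among APP/PS1 and 3.20 to 5.65 (median 3.67) among APP/PS1/FTnKO mice. APP/PS1 mice were lower in the median than both other groups but overlapped with each. By edgeR, log2 fold changes were -0.35 (SE 0.13, unadjusted p = 0.0178, FDR = 0.249) for APP/PS1 relative to WT and 0.41 (SE 0.13, unadjusted p = 0.00481, FDR = 0.207) for APP/PS1/FTnKO relative to APP/PS1. It was 0.06 for APP/PS1/FTnKO relative to WT, with a 95% interval of -0.22 to 0.34, and without APP/PS1/FTnKO mouse 18973, the highest of all, it was -0.03.

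Nos1 (ENSMUSG00000029361, chromosome 5 from 117781032 to 117958840) encodes the neuronal enzyme that makes nitric oxide. The WT mice had 82.9, 84.2, 83.7, 75.6 and 83.2 normalized CPM, a coefficient of variation of 4.37%, the smallest of any member in any group. Values of 53.1 to 81.8, with a median of 67.2, were found in APP/PS1 mice, and of 70.1 to 93.6, with a median of 82.0, in APP/PS1/FTnKO mice. Of the APP/PS1 mice, 19619, at 81.8, and no other lay above the lowest WT mouse. Relative to WT, APP/PS1 mice had a log2 fold change of -0.29 (SE 0.10, 95% interval -0.49 to -0.09, unadjusted p = 0.00766, FDR = 0.180, edgeR). APP/PS1/FTnKO mice stood at 0.28 relative to APP/PS1 (SE 0.09, 95% interval 0.09 to 0.48, unadjusted p = 0.00625, FDR = 0.222, edgeR) and at -0.0049 relative to WT, with an interval of -0.21 to 0.20. Median RIN was lowest in APP/PS1 mice as well, at 8.2 beside 8.7 in WT and 8.6 in APP/PS1/FTnKO mice. With RIN as a covariate, Nos1 was at -0.16 in APP/PS1 relative to WT (unadjusted p = 0.0957, FDR = 0.688, edgeR). For APP/PS1/FTnKO relative to APP/PS1 it was then at 0.24 (unadjusted p = 0.00695, FDR = 0.135, edgeR). In mice of RIN of at least 8 these differences were -0.17 (unadjusted p = 0.0630, FDR = 0.579, edgeR) and 0.18 (unadjusted p = 0.0504, FDR = 0.534, edgeR). Whether RNA quality has a part in Nos1 was not tested beyond this.

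**Figure D3:**
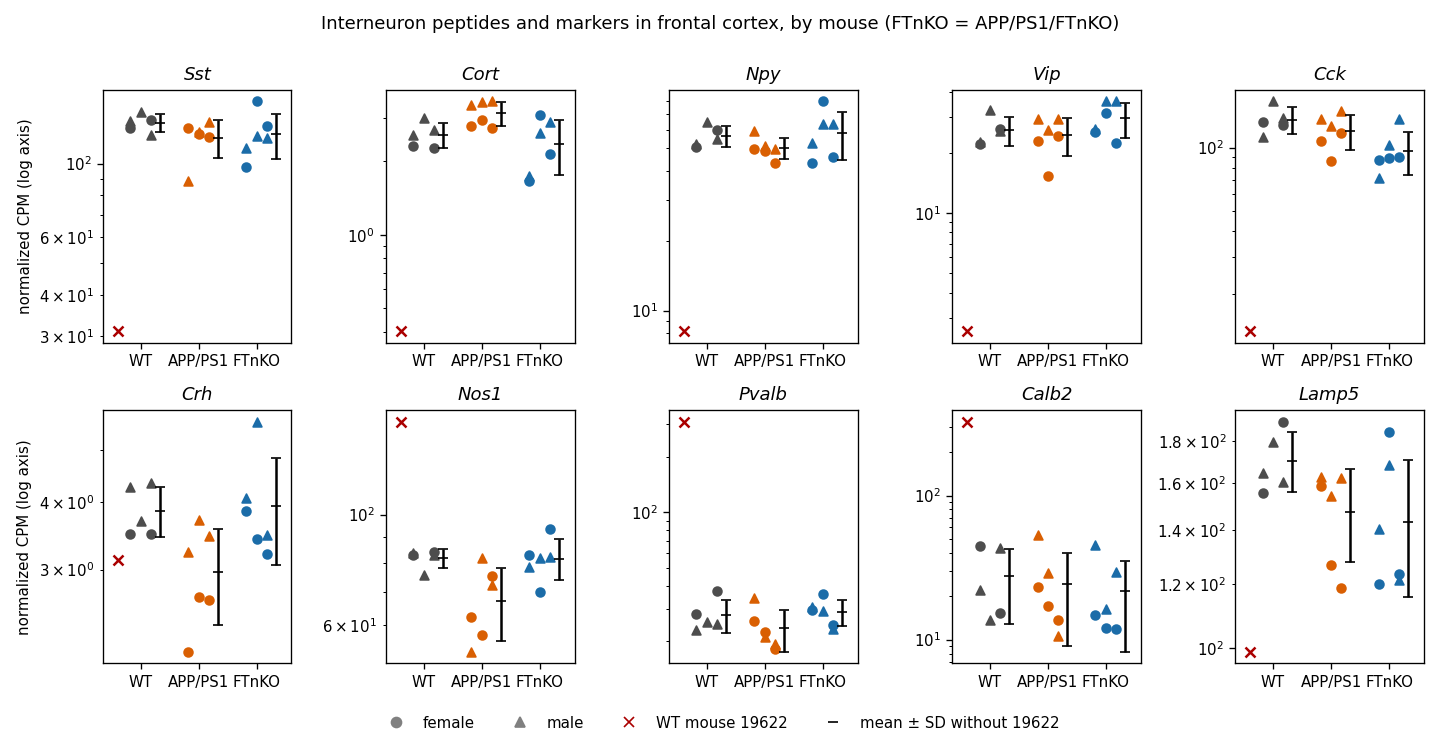
Normalized CPM of each gene in every mouse on log axes, with females as circles, males as triangles, WT mouse 19622 as a red cross and the mean ± SD of the other mice of each genotype as black bars (FTnKO stands for APP/PS1/FTnKO). The 3 genotypes overlap in each panel, Sst, Npy, Vip, Crh, Nos1 and Pvalb being lowest on average in APP/PS1 and Cck, Cort, Calb2 and Lamp5 in APP/PS1/FTnKO mice, and 19622 lies far from the rest for Calb2, Pvalb, Cck and Vip.

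Pvalb (ENSMUSG00000005716, chromosome 15 from 78191114 to 78206400) encodes parvalbumin, the calcium buffer of fast-spiking basket and chandelier cells. In WT mice it was at 28.2, 37.2, 22.9, 25.5 and 24.8 normalized CPM. APP/PS1 mice ranged from 18.1 to 34.4 (median 21.7) and APP/PS1/FTnKO mice from 23.3 to 36.2 (median 29.3). The groups overlapped widely, the highest APP/PS1 value being that of 16975, the mouse with the lowest Sst. APP/PS1 mice differed from WT by -0.24 on the log2 scale (SE 0.16, FDR = 0.511, edgeR), and APP/PS1/FTnKO from APP/PS1 mice by 0.29 (SE 0.15, FDR = 0.480, edgeR). Without 16975 these were -0.42 and 0.46 (FDR = 0.0929, edgeR), and without WT mouse 19053 the former was -0.12. With 19622 included the former became -1.39, and the value of APP/PS1/FTnKO relative to WT turned from 0.05 to -1.13.

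Calb2 (ENSMUSG00000003657, chromosome 8 from 110137502 to 110168210) encodes calretinin, a calcium-binding protein of part of the Vip cells and also of many neurons of the olfactory bulb, thalamus and cerebellum. WT levels were 44.4, 15.4, 22.1, 13.6 and 43.3 normalized CPM. The range was 10.6 to 52.9 (median 20.2) among APP/PS1 and 11.8 to 45.6 (median 15.5) among APP/PS1/FTnKO mice. Mice with over 40 were found in all 3 genotypes, and the highest of the 17 was 4.97-fold above the lowest, while for the other members this ratio was 1.60 to 2.68. The coefficient of variation within genotypes was 54.1% to 63.1%. The 95% intervals of the 3 log2 fold changes, -1.05 to 0.64, -1.03 to 0.60 and -1.28 to 0.42, were accordingly wide, so that differences of 1.5-fold either way would not have been detectable. Without WT mouse 18944 both values relative to WT turned positive (0.28 for APP/PS1 and 0.036 for APP/PS1/FTnKO), and without 16975 that of APP/PS1/FTnKO relative to APP/PS1 was 0.088. The pair of mice with the highest Calb2, 16975 and 16974, also had the lowest RIN of the 17, 7.7 and 7.6, while the next highest, WT mice 18944 and 19721, had 8.7 and 8.8.

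Lamp5 (ENSMUSG00000027270, chromosome 2 from 136052239 to 136069917) encodes a lysosome-associated membrane protein of neurogliaform cells and others. Among the WT mice it stood at 155, 190.2, 165, 180 and 161 normalized CPM. Values of 119 to 163, with a median of 156, were found in APP/PS1 mice, and of 120.2 to 185, with a median of 132, in APP/PS1/FTnKO mice. Both transgenic groups reached below the lowest WT mouse and both overlapped with WT. Relative to WT, log2 fold changes were -0.24 (SE 0.11, unadjusted p = 0.0485, FDR = 0.222, edgeR) in APP/PS1/FTnKO and -0.20 (SE 0.11, FDR = 0.435, edgeR) in APP/PS1 mice, the latter -0.14 without WT mouse 19053.

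Cck (ENSMUSG00000032532, chromosome 9 from 121489824 to 121495694), which encodes cholecystokinin, came nearest to the threshold. In the 5 WT mice it was 133, 128, 113, 167 and 138 normalized CPM. APP/PS1 mice ranged from 86.0 to 150.1 (median 122) and APP/PS1/FTnKO mice from 71.6 to 136 (median 89.9). Of the 6 APP/PS1/FTnKO mice, 19720, at 136, and no other lay above the lowest WT mouse at 113. The log2 fold change of APP/PS1/FTnKO against WT mice was -0.47 (SE 0.13, 95% interval -0.75 to -0.20, unadjusted p = 0.00201, FDR = 0.0509, edgeR). Against APP/PS1 mice it was -0.31 (SE 0.13, unadjusted p = 0.0221, FDR = 0.337, edgeR), and that of APP/PS1 against WT mice was -0.16 (FDR = 0.615). The last value was -0.24 without WT mouse 19101, -0.10 without WT mouse 19718 and -0.097 without APP/PS1 mouse 19554.

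The call on this difference of Cck depended on the settings. It was called by DESeq2 (FDR = 0.0116), without the filter on low counts (FDR = 0.00422, edgeR), and in edgeR's fits without WT mouse 19101 (FDR = 0.0277), APP/PS1 mice 16975 (FDR = 0.0457), 19554 (FDR = 0.0451) or 19744 (FDR = 0.0452), or APP/PS1/FTnKO mouse 19720 (FDR = 0.0220). It was not called in any other setting tried. With 19622 included the log2 fold change was -0.23 (FDR = 0.764, edgeR), and over all settings it ranged from -0.58 to -0.23.

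Of the 9 excitatory neuron markers, 1 was called in the same comparison, where 3.87% of all genes were. This was Slc17a7, the vesicular glutamate transporter of cortical excitatory neurons, lower at -0.46 (SE 0.12, FDR = 0.0396, edgeR). The log2 fold changes of the other 8 were negative as well, from -0.25 (Tbr1, FDR = 0.222) to -0.013 (Foxp2, FDR = 0.974), and 7 of them had an unadjusted p above 0.05. With Slc17a7, the 9 summed to 1421 to 2008 normalized CPM (WT), 1241 to 1964 (APP/PS1) and 1039 to 1426 (APP/PS1/FTnKO). Slc17a7 alone held 58.9% to 71.7% of that sum, and none of the 9 was at 0 counts in any of the 17 mice. The part of these markers in the difference of Cck was not tested.

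Sex was compared in the same fit, and no member was called between males and females by edgeR or DESeq2, where 0.0689% of all genes were called by edgeR. Crh, Vip and Cck had an unadjusted p below 0.05, all 3 higher in males, against 6.70% of all genes. The log2 fold change of males against females was 0.35 (SE 0.11, FDR = 0.575, edgeR) for Crh, 0.32 (SE 0.11, FDR = 0.575, edgeR) for Vip and 0.25 (SE 0.11, FDR = 0.664, edgeR) for Cck. That of Calb2 was larger, 0.65, but with a 95% interval of -0.04 to 1.34. For the interaction of sex and genotype, no member and 0% of all genes were called in each of the comparisons by edgeR (0% for APP/PS1 relative to WT, 0% for APP/PS1/FTnKO relative to APP/PS1 and 0% for it relative to WT). No member had an unadjusted p below 0.05 in any of these, against 705, 578 and 312 genes in all. DESeq2 called 0 members for the interactions, and its share over all genes is not given here for these or for the sexes.

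The members were next set against the RNAs that all GABA neurons share. Gad1 and Gad2, the GABA-synthesizing enzymes, and Slc32a1, the vesicular transporter, were not called in any genotype comparison, with log2 fold changes of -0.22, -0.07 and -0.08 for APP/PS1 against WT mice (FDR = 0.445 or more, edgeR). Relative to the mean log2 level of these 3, Nos1 was at -1.55 ± 0.22 (SD, n = 5) in WT mice, -1.75 ± 0.35 (n = 6) in APP/PS1 mice and -1.48 ± 0.28 (n = 6) in APP/PS1/FTnKO mice, so that the spread on this scale was wider than the differences. Cck was at -0.83 ± 0.46, -0.91 ± 0.49 and -1.26 ± 0.48, and Crh at -5.96 ± 0.28, -6.26 ± 0.47 and -5.87 ± 0.28 in the same order. The group means of Sst differed by less than 0.1 on this scale, from -0.91 to -0.85. In 19622, Pvalb and Calb2 were above the mean of the 3 genes, at 0.55 and 0.62, while in the other groups their means lay at -2.99 or below. These are descriptions with no test. Apart from 19622, Gad2 was lowest in mice 16975, 19720 and 19718, at 192, 200 and 214 normalized CPM. The same mice had the lowest sums of the striatal list, 584, 514 and 587. Gad1 went the other way in 16975, at 477, the highest value among APP/PS1 mice. The part of striatal RNA in the levels of the 3 genes, and so in this scale, was not tested.

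Across the 17 mice, members varied together in pairs once genotype and sex had been removed. Of 45 pairs, 5 passed a Benjamini-Hochberg adjusted p of 0.05 for Pearson's r in permutation tests, in which the degrees of freedom used by genotype and sex are not taken off, so that these p-values are somewhat too small. Vip and Cck had r = 0.77 (permutation p = 0.00044, adjusted p = 0.0087) and Spearman's rho = 0.71 (permutation p = 0.00228, adjusted p = 0.0363), and r was 0.64 without the 2 mice farthest from the median of Vip. Npy and Cort had r = 0.78 (permutation p = 0.00055, adjusted p = 0.0087) and rho = 0.69 (permutation p = 0.00307, adjusted p = 0.0363), with r = 0.49 without 2 mice. Npy and Lamp5 had r = 0.75 (permutation p = 0.00058, adjusted p = 0.0087) and rho = 0.66 (permutation p = 0.00484, adjusted p = 0.0363), with r = 0.55 without 2 mice. Both relations of Npy therefore rested in part on the mice left out.

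Pvalb and Lamp5 had r = 0.67 (permutation p = 0.0032, adjusted p = 0.0358) and rho = 0.74 (permutation p = 0.00099, adjusted p = 0.0363), with r = 0.72 without 2 mice. Nos1 and Pvalb varied in opposite directions, with r = -0.66 (permutation p = 0.00398, adjusted p = 0.0358), rho = -0.55 (permutation p = 0.0239, adjusted p = 0.119) and r = -0.56 without 2 mice. Sst and Calb2, at r = -0.60 (permutation p = 0.0109, adjusted p = 0.0798), missed the threshold for r and passed it for rho, at -0.67 (permutation p = 0.004, adjusted p = 0.0363), with r = -0.68 without 2 mice. So did Npy and Vip, with r = 0.58 (permutation p = 0.0142, adjusted p = 0.0798), rho = 0.67 (permutation p = 0.00441, adjusted p = 0.0363) and r = 0.59 without 2 mice. With genotype and sex left in, 0 of the 45 pairs passed for r, the smallest adjusted p being 0.110 for Npy with Lamp5 and for Npy with Vip (r = 0.66 for both). By rho 3 pairs then passed, Npy with Vip (0.76, permutation p = 0.00053, adjusted p = 0.0239), Npy with Lamp5 (0.73, permutation p = 0.00119, adjusted p = 0.0268) and Cort with Nos1 (-0.69, permutation p = 0.00286, adjusted p = 0.0429). All these values share libraries and their scaling.

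**Figure D4:**
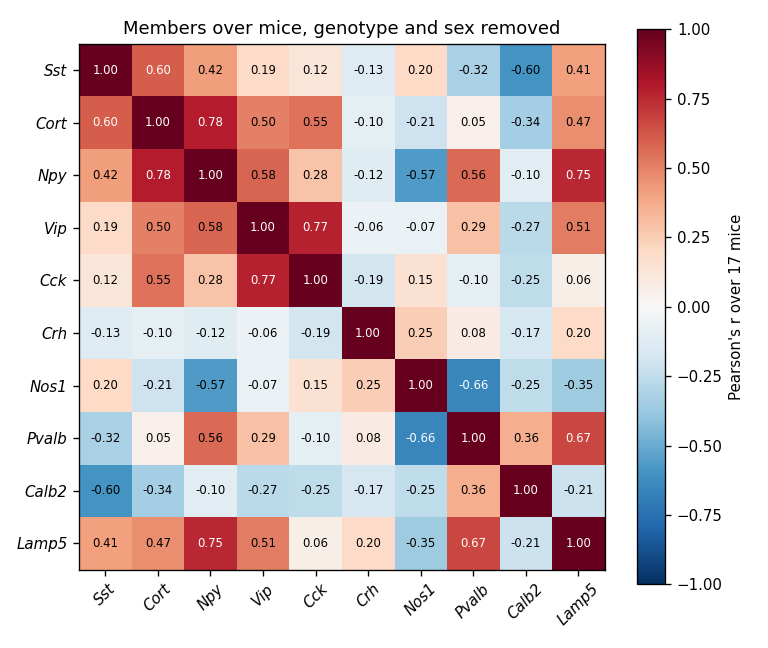
Pearson's r between the 10 genes over 17 mice after genotype and sex were removed from log2 normalized CPM, in red for positive and blue for negative values. Npy with Cort (0.78) and Vip with Cck (0.77) are the largest positive values, and Nos1 with Pvalb (-0.66) the most negative.

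The members were also related to the summed levels of 8 marker lists over the 17 mice. These 80 relations were chosen after the values had been seen, and 6 passed for r. Cck rose with the excitatory list (r = 0.81, permutation p = 0.0001, adjusted p = 0.00267, rho = 0.80, permutation p = 0.00016, adjusted p = 0.0064, and r = 0.72 without 2 mice). Of this sum Slc17a7 held 58.9% to 71.7% in the 17 mice, so that the relation was largely that of Cck with Slc17a7 (r = 0.86). With the other 8 genes alone r was 0.56 (permutation p = 0.0183) and rho 0.54 (permutation p = 0.0266), not adjusted, as the relation had been chosen by its r. Cck was lower where the striatal list was high (r = -0.78, permutation p = 7e-05, adjusted p = 0.00267, rho = -0.85, permutation p = 7e-05, adjusted p = 0.0056, and r = -0.67 without 2 mice). The same held for the thalamic list (r = -0.83, permutation p = 9e-05, adjusted p = 0.00267, rho = -0.69, permutation p = 0.00271, adjusted p = 0.0361, and r = -0.67 without 2 mice). Ranges of the striatal sum were 587 to 1205 normalized CPM (WT), 584 to 1533 (APP/PS1) and 514 to 1227 (APP/PS1/FTnKO). No gene of the striatal or thalamic list was at 0 in any of the 17 mice. Without the largest gene of each sum, Ppp1r1b and Rora, r was -0.74 and -0.84.

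Calb2 and Sst moved in opposite directions with olfactory bulb genes. Calb2 was higher where the olfactory bulb list was high (r = 0.71, permutation p = 0.0014, adjusted p = 0.0224, rho = 0.69, permutation p = 0.00253, adjusted p = 0.0361, and r = 0.71 without 2 mice), and Sst was lower (r = -0.71, permutation p = 0.00128, adjusted p = 0.0224, rho = -0.72, permutation p = 0.00151, adjusted p = 0.0302, and r = -0.57 without 2 mice). Ranges of its sum were 35.1 to 98.6 normalized CPM (WT), 37.6 to 130.0 (APP/PS1) and 9.19 to 70.5 (APP/PS1/FTnKO), with Tbx21 at 0 counts in 1 mouse. APP/PS1 mouse 16975, with the highest Calb2 and the lowest Sst, had the highest sum, 130.0. The WT mice 18944 and 19721, with 44.4 and 43.3 of Calb2, had sums of 94.3 and 98.6, but APP/PS1/FTnKO mouse 16974, with 45.6 of Calb2, had a sum of 47.6. Calb2 also rose with the cerebellum list (r = 0.69, permutation p = 0.00261, adjusted p = 0.0348, rho = 0.62, permutation p = 0.0097, adjusted p = 0.0806, and r = 0.51 without 2 mice), of whose genes Gabra6 was at 0 in 13 and Pcp2 in 8 of the 17 mice. A single gene, Zic1, which is not confined to the cerebellum, held 74.3% to 90.1% of that sum, and r with the other 5 genes was 0.66 (permutation p = 0.00373, not adjusted) but rho was 0.37 (permutation p = 0.147). In the olfactory bulb list Cdhr1 held 29.6% to 88.3% of the sum, and without it r was 0.87 for Calb2 and -0.56 for Sst. With a list of 3 reactive astrocyte genes, Sst passed for rho alone (r = -0.65, permutation p = 0.00509, adjusted p = 0.0508, rho = -0.74, permutation p = 0.00111, adjusted p = 0.0296). Calb2 had r = 0.65 (permutation p = 0.00511, adjusted p = 0.0508) and rho = 0.58 (permutation p = 0.0163, adjusted p = 0.118) with it. Without 2 mice r was -0.51 and 0.45. Mice 16975 and 16974, highest in Calb2, had the highest astrocyte sums, 1413 and 1211. The part of these regions or of astrocytes in the levels of Calb2 and Sst was not tested.

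**Figure D5:**
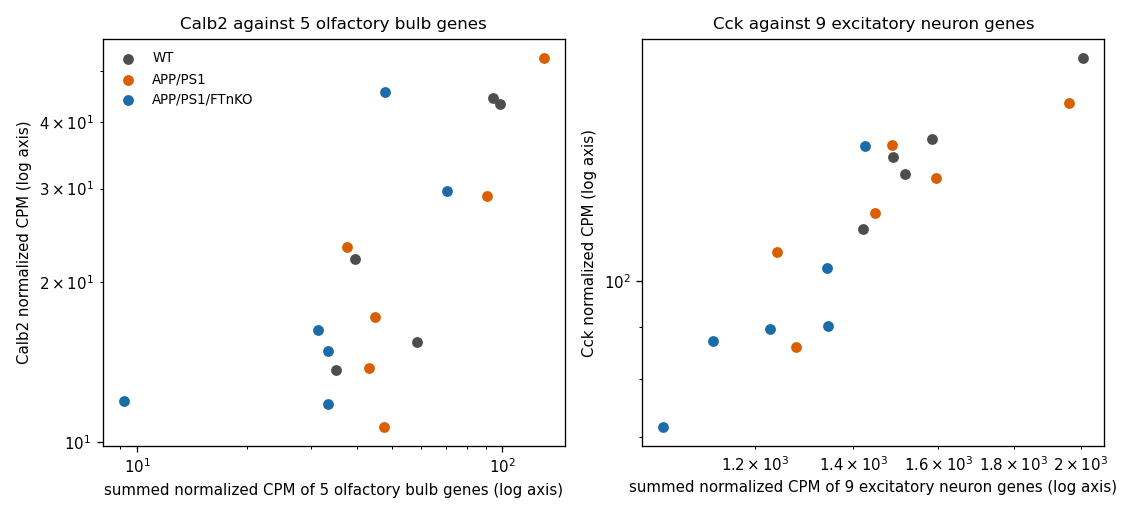
Calb2 against the summed normalized CPM of 5 olfactory bulb genes (left) and Cck against that of 9 excitatory neuron genes (right), with a point for each of 17 mice, coloured by genotype, on log axes. Mice with high Calb2 come from all 3 genotypes, and APP/PS1/FTnKO mice fill most of the lower left corner of the plot of Cck.

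For each member, the 3 genes most like it were taken by Pearson's r of log2 levels over the 17 mice with genotype and sex removed, as a description. For Cck they were Shank1 (r = 0.95), Ern1 (0.92) and Wwc1 (0.89), for Calb2 Trh (0.93), Tmco1 (0.93) and Cyp39a1 (0.91), and for Npy Capzb (0.91), Dhrs7b (0.88) and Uqcrb (0.88). Trh, the gene of thyrotropin-releasing hormone, had 13.6, 11.8, 10.7 and 9.25 normalized CPM in the mice 16975, 16974, 18944 and 19721, which are the 4 mice with the highest Calb2. For Nos1 they were Tnrc18 (0.91), Kif26b (0.90) and Hipk2 (0.89), for Vip Ccbe1 (0.91), Gm32031 (0.87) and Gm12905 (0.85), and for Sst Tesc (0.88), Actn1 (0.88) and Dnaja2 (0.87). For Lamp5 they were Psmc4 (0.87), Tpm1 (0.86) and Idh3b (0.85), and for Pvalb they included Ero1lb (0.86) and Pirb (0.86). Cort was nearest to Gspt2 (0.86), Wdr45 (0.85) and Serinc2 (0.83), and Crh to Lysmd3 (0.82), Mei4 (0.80) and L3mbtl2 (0.79). With genotype and sex left in, 6 of the 30 genes taken were found again.

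Genes that act with the members were also tested. None of the 13 tested receptors of the members' peptides (of 14) was called in any comparison, but in APP/PS1/FTnKO against WT mice 5 of them had an unadjusted p below 0.05, beside 22.1% of all genes, each with a negative log2 fold change. These were the somatostatin receptors Sstr2 at -0.59 (SE 0.18, FDR = 0.0777), Sstr1 at -0.51 (SE 0.16, FDR = 0.0817) and Sstr3 at -0.36 (SE 0.13, FDR = 0.103), the Crh receptor Crhr1 at -0.32 (SE 0.11, FDR = 0.104) and the Vip receptor Vipr1 at -0.21 (SE 0.10, FDR = 0.210) in edgeR's test. The other somatostatin receptors, Sstr4 at -0.19 (FDR = 0.644) and Sstr5 at -0.31 (FDR = 0.750), had an unadjusted p above 0.05. Of the 11 genes of peptide processing and dense-core vesicles, 2 were called, both lower in APP/PS1/FTnKO than in WT mice, beside 3.87% of all genes. Pcsk2, a convertase that cleaves prohormones, spanned 294 to 400 normalized CPM (APP/PS1/FTnKO), 303 to 485 (APP/PS1) and 420.0 to 510 (WT), and its log2 fold change was -0.37 (SE 0.10, FDR = 0.0465, edgeR). Chga, the granule protein chromogranin A, was at 125 to 148, 121 to 156 and 151 to 166 in the same order, with -0.24 (SE 0.06, FDR = 0.0407, edgeR). For both, the APP/PS1/FTnKO and WT mice did not overlap, beside 5.60% of all genes.

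Of 27 further subtype markers, 1 was called, a share near the 3.87% of all genes. It was Kcnc2, a potassium channel gene of fast-spiking cells, lower in APP/PS1/FTnKO mice relative to WT, at -0.35 on the log2 scale (SE 0.09, FDR = 0.0445, edgeR). None of the 6 factors of interneurons born in the medial ganglionic eminence, of the 6 genes of those born in the caudal one, or of the 6 genes of nitric oxide signalling was called in any genotype comparison. The first of these lists summed to 173 to 189 normalized CPM (WT), 155 to 182 (APP/PS1) and 157 to 181 (APP/PS1/FTnKO). The list for the caudal eminence summed to 67.9 to 85.6, 58.4 to 73.6 and 62.7 to 77.3. No gene of any of these lists was called by edgeR for APP/PS1/FTnKO relative to APP/PS1.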

How the data were processed

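Frontal cortical RNA of 18 mice had been sequenced as stranded mRNA libraries. Per the study's methods and the submitters' processing notes, the authors trimmed reads with Trimmomatic 0.33 (FastQC 0.11.7 is also listed), aligned them to GRCm38 with HISAT2 2.1.0 and counted them with featureCounts. The deposited values are raw counts per gene without normalization, 0 columns were unused, and how strand and multi-mapping reads were set could not be read from the sources used here. Group, sex and RIN came from the labels.

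The test was the quasi-likelihood F test of edgeR 4.0.16 in R 4.3.3 (TMM, minimum count 10 in filterByExpr, the 3 genotypes in 1 fit with sex as a term, 17 mice) and Benjamini-Hochberg adjustment over all 17414 genes at 0.05, which is the FDR. Alternatives were DESeq2 1.42.0, all 18 mice, RLE factors, no filter, no sex term, RIN as a covariate, fits limited to the genotypes compared or to mice of RIN 8 or more, and fits without each mouse in turn. The 95% intervals and SEs were derived from edgeR's F statistics. Correlations used log2(normalized CPM + 0.5) and permutation tests, two-sided, with 100000 resamples (written 1e+05 in the tables). The script was tested on simulated data. Counting error is small at these depths, except for Cort and Crh. Nothing states that the mice came from separate litters, so the p-values measure the spread between mice.

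The members, marker lists and tests were chosen with earlier results of these data known. Named genes are the 10 members, list genes that were called, the 3 GABA genes and the 3 genes most like each member, of which 1 is not reported here. The peptide receptors, single excitatory and cerebellar genes, and the relations to marker lists, with and without their largest gene, were chosen after their values were seen. Lists of hypothalamic, hippocampal and reactive astrocyte genes were also fitted. Of the 6 hypothalamic genes 2 passed the filter on low counts, and 0 were called. Of the hippocampal genes, Fibcd1 was called lower in APP/PS1/FTnKO than in WT mice (log2 fold change -0.40). Of 3 reactive astrocyte genes, 3 were called higher in APP/PS1 and 2 in APP/PS1/FTnKO mice relative to WT. Over all genes, 1.50% were called for APP/PS1 and 3.87% for APP/PS1/FTnKO against WT.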

Additional observations from a re-analysis of the deposited data

Results flagged for a closer look

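In 30 groups of mice, 1 for each gene and genotype with 19622 in the WT group and all values on the scale of 18 mice, 10 held a mouse set apart from the nearest of its group by more than Dixon's 95% critical value. In 8 of the 10 it was WT mouse 19622, which had been set apart before, so that these restate that choice. Its normalized CPM was 31.0 for Sst, 8.16 for Npy, 2.57 for Vip, 13.3 for Cck and 0.403 for Cort, each the lowest WT value. It was 153 for Nos1, 324 for Calb2 and 308 for Pvalb, each the highest. In the 20 APP/PS1 and APP/PS1/FTnKO groups 2 were found, near the 1 in 20 that chance alone gives. They were the low Sst of APP/PS1 mouse 16975 at 89.2 and the high Crh of APP/PS1/FTnKO mouse 18973 at 5.64. What sets these mice apart was not tested.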

How the results depend on the processing

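No member was called between APP/PS1 and WT, between APP/PS1/FTnKO and APP/PS1, between the sexes or for the interaction in any setting. In APP/PS1/FTnKO against WT mice the number called was 0, but 1 (Cck) by DESeq2 and 1 without the filter, and 0 to 1 over the 17 fits that left out a mouse. Log2 fold changes crossed 0 in 20 cases. With 19622 included, Sst was at 0.061, Npy at 0.073, Vip at 0.18 and Cck at 0.083 in APP/PS1 against WT mice. Sst was at 0.092, Cort at 0.14 and Pvalb at -1.13 in APP/PS1/FTnKO against WT mice, and between the sexes Sst was at 0.078, Nos1 at -0.11 and Calb2 at -0.034. With RIN as a covariate, Vip (0.064) and Cck (0.046) in APP/PS1 against WT, Sst (-0.017) in APP/PS1/FTnKO against APP/PS1, and Nos1 (0.076) and Pvalb (-0.055) in APP/PS1/FTnKO against WT mice crossed 0. With RIN of at least 8, so did Vip (0.012) in APP/PS1 against WT, Sst (-0.024) in APP/PS1/FTnKO against APP/PS1, and Cort (0.014), Nos1 (0.010) and Pvalb (-0.0048) in APP/PS1/FTnKO against WT. The cause was not tested.

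With each mouse left out, the values that crossed 0 ranged as follows. For APP/PS1 against WT, Vip lay between -0.13 and 0.025 and Calb2 between -0.49 and 0.28. For APP/PS1/FTnKO against APP/PS1, Sst lay between -0.042 and 0.10, Calb2 between -0.48 and 0.088 and Lamp5 between -0.14 and 0.018. For APP/PS1/FTnKO against WT, Npy lay between -0.082 and 0.12, Crh between -0.035 and 0.13, Cort between -0.21 and 0.012, Nos1 between -0.050 and 0.035, Calb2 between -0.69 and 0.036 and Pvalb between -0.016 and 0.18. Between the sexes Nos1 lay between -0.039 and 0.051. Over all settings Nos1 lay between -0.47 and -0.16 in APP/PS1 against WT and between 0.18 and 0.35 in APP/PS1/FTnKO against APP/PS1 mice. With genotype and sex left in, 0 pairs of members passed for Pearson's r in place of 5 and 3 for Spearman's rho in place of 6, 6 of the 30 most alike genes were found again, and without length 9 members changed place in the order. No paired analysis was possible because the labels give no litter and no shared replicate number. The study calls the mice littermates without saying which share a litter, so a litter effect was not tested. Group sizes of 5 and 6 limit what could be called, and Cort and Crh rest on few counts.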
